A study of Mus musculus with 4 samples.

Results

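CD8 T cells were compared with CD4 T cells on the arrays labelled wildtype, with 2 arrays of the 4 in the series, 1 for each subset. The members were picked by their titles, as the wildtype array of each subset, and no value set the membership. The comparison itself was chosen with earlier results of these data known. Both samples were untreated spleen cells of wildtype C57Bl/6 mice, sorted by flow cytometry after staining for CD44, CD4 and CD8, and labelled as CD4+ CD44lo and CD8+ CD44lo cells, and each array took pooled RNA from 2 mice. The other pair, labelled CD4+ CD44lo and CD8+ CD44lo cells of Gfi1 knockout mice on the same strain name, was sorted and pooled in the same way and is given beside it where stated. The mice's age is not given in the labels, nor is whether the CD4 and CD8 cells came from the same animals. The titles of the wildtype arrays end in M and those of the knockout arrays in N, letters that the labels do not explain.

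CD4 and CD8 T cells leave the thymus with the same T cell receptor machinery and different jobs. CD8 cells recognise peptides on MHC class I and kill their targets with perforin and granzymes held in secretory granules. CD4 cells recognise peptides on MHC class II and act mainly by cytokines and by surface ligands such as CD40L, and they include the follicular helpers and the FOXP3-positive regulatory cells. After contact with antigen both subsets gain CD44, lose part of their lymph node homing programme and take up receptors that lead them into tissues.

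The CD44 label did not match the signal on these arrays. Cd44, which encodes the hyaluronate receptor of antigen-experienced T cells, read 8136 on the wildtype CD4 and 5740.3 on the wildtype CD8 array, against 196 and 252 on the knockout-labelled CD4 and CD8 arrays. Every result below is therefore a comparison of CD8 with CD4 cells on 2 arrays of high Cd44 signal, named by their labels. Between them Cd44 differed by a log2 value of -0.50, CD8 minus CD4, which is under 2-fold.

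Signals are linear MAS5 intensities per probe set in arbitrary units. Every value under 93.9, the 40th percentile of the signals left after removing controls, was raised to this floor and then put on the log2 scale. A fold with 1 array at the floor is written as "at least", and no fold is given with both there. With 1 array a side there is no spread between animals and no test of a single difference in this pair, so precision is limited by the number of arrays. Median signals were 235 on the CD4 and 224 on the CD8 array, and 61.6% and 61.2% of probe sets lay above the floor. Between the arrays of this pair Pearson's r was 0.959 and Spearman's rho 0.955 across 12162 probe sets that exceeded the floor everywhere, given as a description of probe sets that share these libraries. Gfi1, the gene named as knocked out, read 2272 and 1158 on the wildtype-labelled CD4 and CD8 arrays and 2891 and 2447 on the knockout-labelled ones; where its probe set lies relative to the deletion is not stated in the labels, so these values check no label.

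Of 8333 genes above the floor on at least 1 of the 2 arrays, 267 (3.2%) had a CD8 signal of at least 2-fold the CD4 signal and 429 (5.15%) had the reverse. The median log2 difference over the 8333 genes was -0.01. The middle of the distribution was narrow, with quartiles at -0.27 and 0.24. On 78 of the higher genes the CD4 array, and on 106 of the lower genes the CD8 array, lay at the floor. The plot of both arrays shows the tails beside the diagonal.

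**Figure D1:**
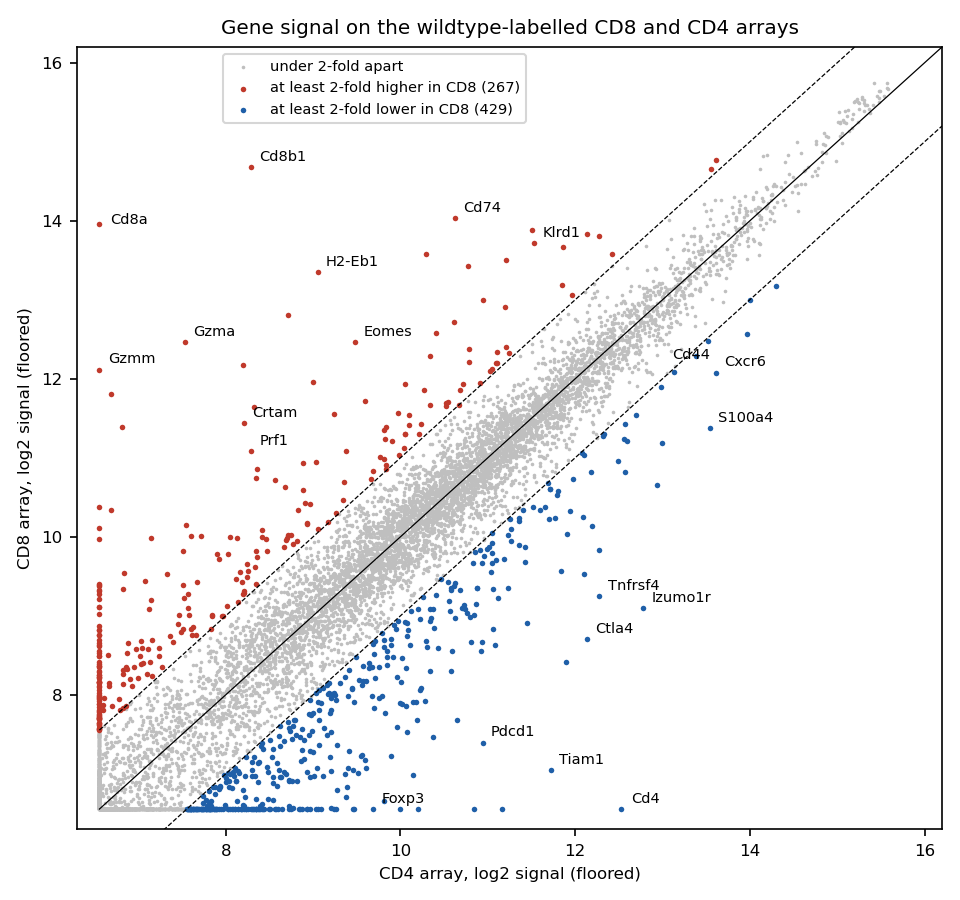
Each point is a gene, with its floored log2 signal on the wildtype-labelled CD4 array on the x axis and on the CD8 array on the y axis; the solid line marks equal signal and the dashed lines 2-fold. The 267 genes at least 2-fold higher in CD8 are red and the 429 at least 2-fold lower are blue, with Cd8a, Cd8b1 and granzyme genes at the upper left and Cd4, Ctla4 and Izumo1r at the lower right.

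The subset markers matched the labels. Cd8a, the alpha chain of the CD8 coreceptor, read 67.2 on the CD4 array and 15920.4 on the CD8 array, at least 169.5-fold higher in CD8 (log2 7.41). Cd8b1, the beta chain, read 312 and 26222, 84.0-fold higher in CD8. Cd4 read 5901 and 18.9, at least 62.8-fold lower in CD8. Of 14 CD8 lineage genes that could be named, 9 were higher by 2-fold or more in CD8 and 0 lower, against 3.2% and 5.15% of all genes. Of 12 CD4 lineage genes, 8 were at least 2-fold lower and 0 higher, against 5.15% and 3.2% of all genes. The median of the 11 above the floor was -2.16. Many members of both lists, among them Eomes, Klrd1, Prf1, Zbtb7b, Icos and Ctla4, also belong to effector, helper or regulatory lists below. The counts of these lists are therefore not separate evidence. Zbtb7b, which encodes ThPOK, the factor that commits thymocytes to the CD4 fate, read 587 on the CD4 and 148 on the CD8 array, 3.96-fold lower in CD8. Runx3, the factor that silences Cd4 in CD8 cells, had low signal on both arrays, at 179 in CD4 and 132 in CD8, a log2 difference of -0.44.

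Several genes of the killing granule were higher in CD8. Granzymes are serine proteases that enter the target cell through perforin pores. Gzma, the gene of granzyme A, read 185 on the CD4 and 5633 on the CD8 array, a log2 difference of 4.93. Gzmm, granzyme M, lay below the floor in CD4 (79.9) and read 4443 in CD8, at least 47.3-fold higher. Prf1, the perforin gene, read 314 in CD4 and 2170.4 in CD8, 6.91-fold higher; a second, dim Prf1 probe set read 12.4 and 108, and the mean of both gave a log2 difference of 1.498. Gzmb, granzyme B, read 409 and 1581, 3.87-fold higher in CD8. Of 21 granule genes that could be named, 16 lay above the floor on 1 or both arrays, and 6 of them were at least 2-fold higher, against 3.2% of all genes; 1 was lower. The other 2 higher genes had high signal in both subsets: Nkg7, a granule membrane protein of killer cells, read 4485.5 in CD4 and 14569 in CD8, and Ctsw, a cathepsin of cytotoxic cells, read 3707 and 13074.

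Not every part of the granule programme followed the subsets. Gzmk, granzyme K, read 1135 in CD4 and 1856 in CD8, a log2 difference of 0.71. Srgn, the serglycin proteoglycan that packs granule contents, was near level at 22817 and 21059.9, and Lamp1 of the granule membrane had a difference of 0.21. Fasl, the death ligand that kills through FAS, ran the other way, at 1879 in CD4 and 656 in CD8, 2.86-fold lower in CD8. Gzmc, Gzmd, Gzme, Gzmf and Gzmg lay below the floor on both arrays. Genes used as natural killer cell markers include Gzma and Eomes. Of that list of 9, 7 could be named and 6 lay above the floor on the CD8 array and 5 on the CD4 array. Its summed signal was 12759.7 on the CD8 and 1537 on the CD4 array. Of the 6 in CD8, 4 were at least 2-fold higher than in CD4, against 3.2% of all genes. They were Gzma, Eomes, Tyrobp, the DAP12 adaptor of killer cell receptors (239 in CD4 and 883 in CD8, 3.70-fold), and Klra8, a Ly49 receptor (2.4 and 221, at least 2.35-fold). The defining marker Ncr1 lay below the floor on both, at 1.2 in CD8 and 38.0 in CD4, Fcer1g was level at 251 and 248, and the part of such cells in the granule values was not tested.

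Promoter windows of 5 of the 6 higher granule genes are printed here because these genes were higher together and their windows shared a short run of letters. The windows run 250 bases before to 50 after a start site in RefSeq's mouse annotation (GRCm38.p6), 5′ to 3′ on the gene's strand. Gzma lies at chr13:113100932-113101231 (minus strand), Gzmb at chr14:56262285-56262584 (minus), Gzmm at chr10:79688770-79689069 (plus), Prf1 at chr10:61297586-61297885 (plus) and Nkg7 at chr7:43436888-43437187 (plus). Capitals mark matches to TGTGGT or its reverse complement ACCACA, the core letters bound by RUNX factors.
Gzma: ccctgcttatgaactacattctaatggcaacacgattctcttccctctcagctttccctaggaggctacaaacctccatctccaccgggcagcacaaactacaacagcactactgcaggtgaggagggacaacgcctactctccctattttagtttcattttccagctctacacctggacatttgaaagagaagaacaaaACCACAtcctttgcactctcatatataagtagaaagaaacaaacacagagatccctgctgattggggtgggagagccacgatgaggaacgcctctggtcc
Gzmb: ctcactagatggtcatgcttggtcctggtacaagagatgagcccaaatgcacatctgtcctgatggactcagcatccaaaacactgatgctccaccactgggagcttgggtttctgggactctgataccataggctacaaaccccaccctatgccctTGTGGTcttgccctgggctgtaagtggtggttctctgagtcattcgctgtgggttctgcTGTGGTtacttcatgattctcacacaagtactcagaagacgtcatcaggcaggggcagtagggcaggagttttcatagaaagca
Gzmm: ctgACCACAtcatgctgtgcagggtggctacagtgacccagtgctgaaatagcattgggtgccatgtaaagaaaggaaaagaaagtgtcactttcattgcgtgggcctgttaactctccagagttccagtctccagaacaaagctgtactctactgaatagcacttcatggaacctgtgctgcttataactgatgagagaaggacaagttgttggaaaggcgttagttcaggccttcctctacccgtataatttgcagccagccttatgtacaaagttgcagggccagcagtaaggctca
Prf1: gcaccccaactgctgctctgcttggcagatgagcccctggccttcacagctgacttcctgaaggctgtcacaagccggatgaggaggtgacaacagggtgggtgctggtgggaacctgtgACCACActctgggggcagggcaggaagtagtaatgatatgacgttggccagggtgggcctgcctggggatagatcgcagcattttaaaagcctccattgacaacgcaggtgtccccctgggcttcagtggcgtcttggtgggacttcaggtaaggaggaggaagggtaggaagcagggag
Nkg7: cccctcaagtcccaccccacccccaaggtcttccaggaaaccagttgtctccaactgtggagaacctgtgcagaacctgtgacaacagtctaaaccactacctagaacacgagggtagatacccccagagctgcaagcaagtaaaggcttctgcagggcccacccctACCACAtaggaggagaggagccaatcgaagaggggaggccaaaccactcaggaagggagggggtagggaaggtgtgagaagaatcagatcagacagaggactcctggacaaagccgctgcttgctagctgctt
Each of the 5 windows held a match, and Gzmb held 2. Another Gzmm start site, at chr10:79693576-79693875, held none, and Ctsw had no window in the table. The letters were found in 55.6% of 18 windows of granule genes above the floor, in 12.6% of the 8787 windows of all genes above the floor and in 16.8% of all 32851 windows. Across all genes, a match was in 42 of 262 windows of genes higher in CD8 by the 2-fold rule and in 57 of 430 windows of the lower genes. The motif was chosen after the values of these genes were known, and a match in letters is a description, not a binding site. The excess in the 18 granule windows was not particular to the RUNX letters. GGTGTG, the core bound by T-box factors, was in 44.4% of them, against 18.2% of windows of all genes above the floor. GGAAA, the core bound by NFAT, was in 72.2%, against 58.7%.

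Secreted effector molecules were found on both sides. Of 18 cytokine and chemokine genes, 16 lay above the floor; 3 were higher and 8 lower in CD8 by 2-fold or more, against 3.2% and 5.15% of all genes, and the median was -0.75. The 3 that were higher are chemokine genes. Ccl5 (RANTES) read 12576 in CD4 and 27872 in CD8, 2.22-fold higher. Ccl4 (MIP-1 beta) read 195 and 1031, 5.30-fold higher. Ccl3 (MIP-1 alpha) read 12.8, below the floor, and 303, at least 3.23-fold higher. Of the 8 lower genes 5 are cytokine genes, while Ltb (23137 in CD4 and 24068 in CD8), Il16, Tgfb1 and Csf2 did not reach 2-fold. Tnf read 998 in CD4 and 194 in CD8, 5.16-fold lower in CD8, and Ifng, the interferon gamma gene, read 1995 and 868, 2.30-fold lower. Il2, the T cell growth factor gene, read 605 in CD4 and 40.9, below the floor, in CD8, at least 6.45-fold lower. Il10 read 312 in CD4 and 4.0 in CD8, at least 3.32-fold lower. Lta, Ccl1, Cxcl10 and Cxcl2 were the other lower genes, between 2.07-fold (a lower bound for Cxcl2) and 3.22-fold.

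Receptors and factors of effector cells were found on both sides. Of 18 killer lectin and related receptor genes, 5 were higher and 1 lower in CD8 by 2-fold or more, against 3.2% and 5.15% of all genes, and of 19 effector and memory transcription factor genes 2 were higher and 5 lower. Klrd1 (CD94), which pairs with NKG2 receptors, read 2955 in CD4 and 13450 in CD8, 4.55-fold higher, and Crtam, an adhesion molecule of activated CD8 cells, read 296 and 2781, 9.41-fold higher. Klra7, a Ly49 receptor, read 36.7 in CD4 and 1329 in CD8, at least 14.2-fold higher; Ly49 genes are close copies, so this probe set may read more than 1 of them. Klrk1 (NKG2D) was near level, at 1742 and 1511, and Klrg1, a receptor of late effector cells, was 2.61-fold lower in CD8 (2123 and 813). Among transcription factors Eomes, the T-box factor of CD8 effector and memory cells, read 716.5 and 5659.5, 7.90-fold higher in CD8. Its relative Tbx21 (T-bet) read 2689 and 3599, under 2-fold apart. Prdm1 (Blimp-1) was 5.33-fold, Irf4 4.70-fold, Bhlhe40 4.11-fold, Nfil3 2.98-fold and Id2 2.64-fold lower in CD8.

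Of 18 surface and cytoplasmic genes by which memory cells are recognised, all above the floor, 3 were higher and 2 lower in CD8 by 2-fold or more, against 3.2% and 5.15% of all genes. The other 13 were under 2-fold apart, and the median of -0.06 rose to as much as 0.20 under other settings. Il2rb, a receptor chain for IL-2 and IL-15, read 6045 in CD4 and 8128 in CD8, and Lgals1, the galectin-1 gene, 32527 and 27667. Ctla2a and Ctla2b, which encode cathepsin inhibitor-like proteins, were 4.90-fold and 4.37-fold higher in CD8. S100a4, a calcium-binding protein of motile memory cells, read 11921 in CD4 and 2657.5 in CD8, 4.49-fold lower, and S100a6 was 2.23-fold lower. Bcl2, the survival gene, read 325 and 907, 2.79-fold higher in CD8.

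Of 18 chemokine and egress receptor genes that could be named, 15 lay above the floor, 2 were higher and 5 lower in CD8 by 2-fold or more, against 3.2% and 5.15% of all genes. The 2 higher ones are found on circulating killer cells, among others. Cx3cr1, the fractalkine receptor, read 44.8 in CD4 and 391 in CD8 (at least 4.17-fold). S1pr5, a sphingosine phosphate receptor, read 36.5 and 369 (at least 3.93-fold). Both lay below the floor on the knockout-labelled arrays, and the part of cells other than T cells in their values was not tested. The lower ones included Ccr6, the CCL20 receptor of helper 17 and memory cells, at 1245.5 in CD4 and 242 in CD8, 5.14-fold lower. Cxcr6, a receptor that places T cells in liver and lung, read 12476 and 4323, 2.89-fold lower, and Ccr9, the gut receptor, read 2334 and 839, 2.78-fold lower. Ccr4 and Ccr8, receptors of helper 2 and regulatory cells, read 235 and 250.1 in CD4 and lay below the floor in CD8. Cxcr3, the receptor of type 1 effector cells, was high on both arrays at 13852 in CD4 and 12356 in CD8, a log2 difference of -0.16. Ccr7, which leads T cells into lymph nodes, read 4805 and 8379.6, under 2-fold apart.

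Cxcr6 and Ccr9 had the opposite order on the knockout-labelled arrays. Cxcr6 read 85.7, below the floor, in CD4 and 3917 in CD8 there, and Ccr9 read 824 and 8689.7. For Ccr9 another probe set gave a difference of -0.69 in the wildtype pair, under 2-fold, so the size for this gene depends on the probe set. The difference between the pairs was not tested.

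Of 26 integrin, selectin and ligand genes that could be named, 23 lay above the floor, 2 were higher and 5 lower in CD8 by 2-fold or more, against 3.2% and 5.15% of all genes, and 16 were under 2-fold apart. The list's median of -0.22 became 0.10 with probe sets averaged, so it has no settled sign. Itgb1, the beta1 integrin chain, read 6176 in CD4 and 2368 in CD8, 2.61-fold lower. Itga4, its alpha4 partner in VLA-4, read 513 and 219, and Itgal, the LFA-1 alpha chain, 2441.5 and 1192, 2.34-fold and 2.05-fold lower; for Itga4 the other probe sets above the floor were under 2-fold. Itgb2, the partner of Itgal, was near level at 16079.7 and 13733. Chst2, a sulfotransferase that builds selectin ligands, read 458 in CD4 and lay below the floor in CD8, at least 4.88-fold lower. Icam1 was 2.06-fold and St3gal6, a sialyltransferase of selectin ligands, 2.74-fold higher in CD8. Itgae, the CD103 chain that binds epithelial E-cadherin, read 362 and 552, a log2 difference of 0.61.

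**Figure D2:**
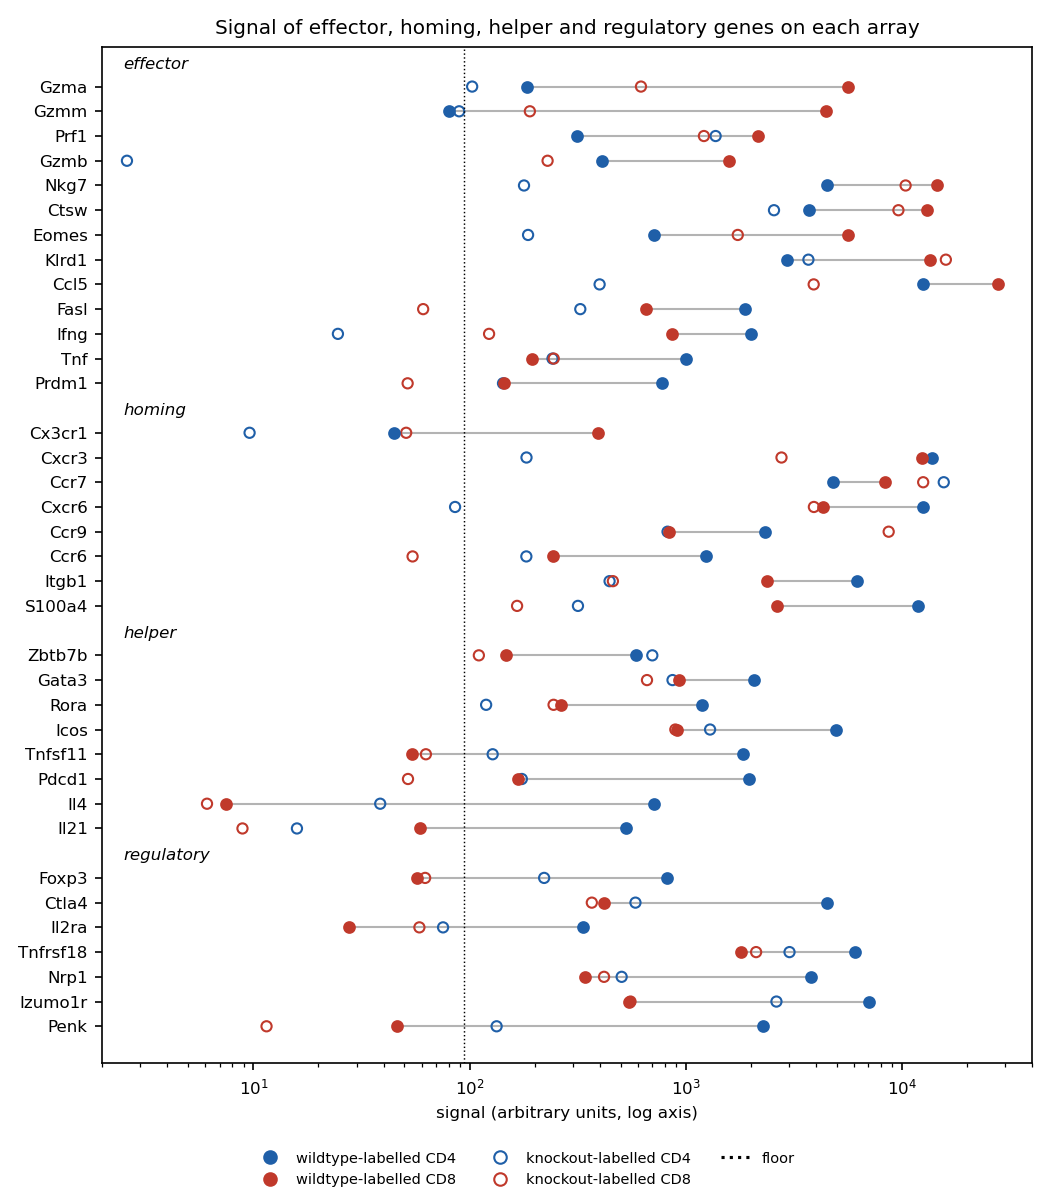
Each row gives the signal of 1 gene on a log axis in arbitrary units, with filled points for the wildtype-labelled CD4 (blue) and CD8 (red) arrays, open points for the knockout-labelled arrays and a dotted line at the floor of 93.9; points below the floor are drawn at their deposited value. Among the wildtype arrays the granule genes shown lie to the right in CD8 except Fasl, which lies to the right in CD4. Foxp3 also lies to the right in CD4, at 824 against 57.1.

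Helper factors and cytokines that were apart by 2-fold were all lower in CD8. Of 17 helper lineage genes that could be named, 12 lay above the floor, and 7 of them were at least 2-fold lower in CD8 and 0 higher; 5.15% of all genes were lower. Rora, a nuclear receptor of helper 17 and innate-like cells, read 1192 in CD4 and 266 in CD8, 4.48-fold lower. Gata3, the helper 2 factor, read 2064 and 936, 2.20-fold lower, Ahr 594 and 257, 2.31-fold, and Bcl6, the follicular helper factor, 1180.1 and 545, 2.16-fold; a second Bcl6 probe set was 0.68 lower on the log2 scale. Il4, the helper 2 cytokine gene, read 710.4 in CD4 and 7.5 in CD8, at least 7.57-fold lower, and Il21, the follicular helper cytokine gene, 531 and 58.8, at least 5.65-fold lower. Il5, Il9, Il13 and Il17a lay below the floor on both arrays. Stat4, which carries the IL-12 signal, read 4772 and 8676, a log2 difference of 0.86.

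Among helper surface and follicular genes, those apart by 2-fold were all lower in CD8 as well. Of 17 named, 8 were at least 2-fold lower and 0 higher in CD8, against 5.15% and 3.2% of all genes, and the median of the 16 above the floor was -1.56, against -0.01 over all genes. The other 8 above the floor were under 2-fold apart, among them Pou2af1 (1322 in CD4 and 1995 in CD8) and Tnfsf8 (559 and 650), both higher in CD8. Tnfsf11, the RANK ligand gene, read 1831 in CD4 and 54.0 in CD8, at least 19.5-fold lower. Pdcd1, the checkpoint receptor PD-1 of follicular helper and chronically stimulated cells, read 1966 and 168, 11.7-fold lower. Icos, the costimulator of follicular helper cells, read 4964 and 910.2, 5.45-fold lower, and Slamf1, Cd200 and Trat1 were 5.46-fold, 5.19-fold and 4.84-fold lower. Cd40lg was low on both arrays, at 168 in CD4 and 43.0 in CD8, with a bound of -0.84. Cd28 (7981 and 5782) and Cd5 (10583 and 6496) were under 2-fold apart.

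Cytokine receptors of helper cells had a median of -0.08 over 17 genes above the floor, which ranged from -0.12 to 0.19 under other settings. Of these genes 2 were at least 2-fold higher and 3 lower in CD8, against 3.2% and 5.15% of all genes. Il17rb, the IL-25 receptor, was 5.12-fold and Il1r2, the IL-1 decoy receptor, 3.20-fold lower in CD8, and Il12rb1 2.24-fold. Il4ra, the IL-4 receptor chain, read 958 in CD4 and 2365 in CD8, 2.47-fold higher, and Ifngr1 read 2419 and 5140.2, 2.12-fold higher.

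Invariant natural killer T cells are CD4+ or double negative, and their markers were partly present on the CD4 array. Zbtb16 (PLZF), their lineage factor, read 198 in CD4 and 8.0 in CD8 on the probe set used, and 755 and 37.0 on another. Of the list of 7, 6 could be named, 6 lay above the floor in CD4 and 4 in CD8, with summed signals of 24311 and 17804. Il4 and Cxcr6 are on this list, and the part of such cells in their values was not tested. In bulk samples fewer cells of a type and less RNA per cell cannot be told apart.

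The regulatory T cell list had the largest number of members apart among the 26 lists, though not the largest share. Of members above the floor, more were apart in the CD4 lineage (8 of 11) and MHC class II (6 of 8) lists as a share. The same held for the dendritic cell list (7 higher and 1 lower of 10). Of 23 genes that could be named, all 23 lay above the floor on at least 1 array, 16 were at least 2-fold lower in CD8 and 0 higher, against 5.15% and 3.2% of all genes, with a median of -1.84. Foxp3, the lineage factor, read 824 in CD4 and 57.1 in CD8, at least 8.77-fold lower. Ctla4, the checkpoint receptor that removes B7 from presenting cells, read 4490.5 and 417, 10.8-fold lower. Izumo1r, the folate receptor 4 gene of regulatory and follicular cells, read 7024 and 546, 12.9-fold lower, and Nrp1, the neuropilin of thymus-derived regulatory cells, 3816 and 343, 11.1-fold. Penk, the proenkephalin gene of tissue regulatory cells, read 2283 and 46.0, at least 24.3-fold lower. Tnfrsf4 (OX40) was 8.12-fold and Tnfrsf18 (GITR) 3.38-fold lower.

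Signals of the same genes in CD8 were not uniformly at the floor. Tnfrsf18 read 1804 there, Tnfrsf9 (4-1BB) 811, Capg 755 and Izumo1r 546. Il2ra, the high-affinity IL-2 receptor chain, read 336 in CD4 and 27.6 in CD8, and 640.4 and 38.9 on another probe set. Ikzf2 (Helios) had a bound of -0.88 and Entpd1 (CD39) a difference of -0.97, just under 2-fold. Itgae was the only member with a positive difference. Foxp3, Ctla4, Tnfrsf4 and Izumo1r read 221, 585, 1157 and 2629 on the knockout-labelled CD4 array, so each was lower there than on the wildtype-labelled CD4 array. Ecm1 and Gpr83 went the other way, at 1744 and 550 there against 779 and 487. On the knockout-labelled arrays 5 of the 18 members over the floor were lower in CD8 and 2 higher by the same rule, against 1.4% and 2.14% of all genes.

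**Figure D3:**
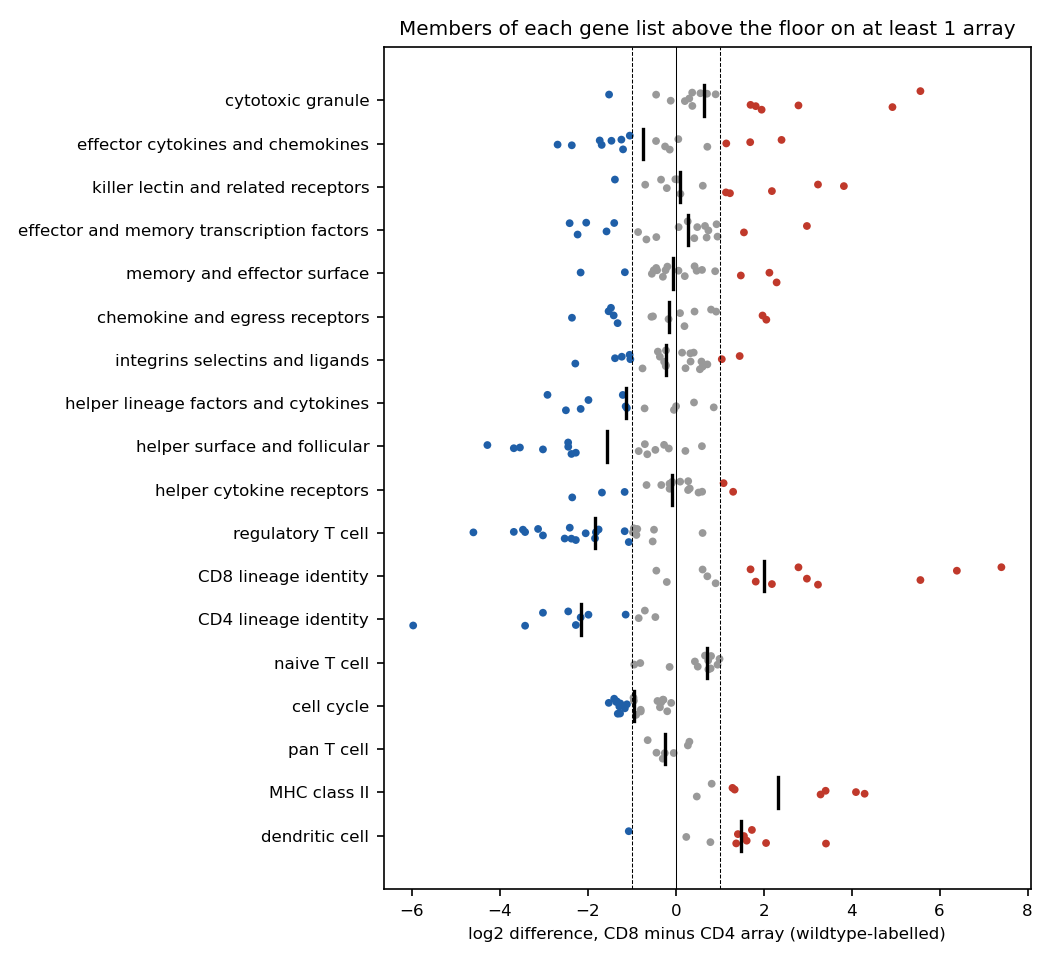
Each point is a member of the list named at the left, placed by its log2 difference, CD8 minus CD4, on the wildtype-labelled arrays, for members above the floor on at least 1 of them; black bars are medians, dashed lines mark 2-fold, and height within a row is arbitrary. Medians run from -2.16 for CD4 lineage and -1.84 for regulatory genes to 2.00 for CD8 lineage genes and 2.32 for MHC class II genes.

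Of 23 cell cycle genes named, 10 were at least 2-fold lower in CD8 and 0 higher, against 5.15% and 3.2% of all genes, with a median of -0.95. Mki67, the proliferation antigen, read 3361 in CD4 and 1555 in CD8, Birc5 (survivin) 3230 and 1325, and Rrm2, a subunit of ribonucleotide reductase, 4639 and 1814. The replication helicase genes Mcm2 to Mcm7 were under 2-fold apart. On the knockout-labelled arrays 6 cell cycle genes were at least 2-fold higher in CD8 and 0 lower, where 2.14% and 1.4% of all genes were. Of the naive T cell genes, 0 of 12 were 2-fold apart in the wildtype pair, where 3.2% of all genes were higher and 5.15% lower. Their median was 0.70. Lef1 (1746 and 3371), Satb1 (5506 and 10978) and Klf2 (8784 and 13923) were higher in CD8 by less than 2-fold, and Igfbp4 (3196 and 1826) was lower. Satb1 is at the limit, at 0.99 on the probe set used and 1.18 and 1.29 on its other probe sets, so the count of 0 rests on that choice.

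Many markers of antigen-presenting cells were higher on the CD8 array. Genes of MHC class II, which mouse T cells make little of, were higher there: H2-Aa read 1254 in CD4 and 12284 in CD8, H2-Ab1 419.5 and 7185, H2-Eb1 531 and 10415.5, and Cd74, the invariant chain, 1576 and 16735. Of 8 MHC class II genes that could be named, 6 were at least 2-fold higher in CD8, against 3.2% of all genes. The summed signal of the 8 was 50512 in CD8 against 5648 in CD4, and 6339.9 and 5379.9 on the knockout-labelled CD4 and CD8 arrays. All 10 dendritic cell genes that could be named lay above the floor in CD8 and 5 in CD4, with sums of 8753 and 4868. Of these, 7 were at least 2-fold higher in CD8 and 1 lower, against 3.2% and 5.15% of all genes. The lower one was Cd83, at 2709 in CD4 and 1291 in CD8, 2.10-fold lower. Zbtb46 was at least 2.59-fold higher in CD8 on the probe set used and lower on another, with a log2 difference of -0.41. Itgax (CD11c) read 1002.5 in CD8 and Xcr1, the receptor of cross-presenting dendritic cells, 249.9. The monocyte and macrophage list summed to 6622 in CD8 and 2820.1 in CD4, with Mpeg1 the highest in CD8 (4610.3, and 294 in CD4). Cd68 (141 in CD4 and 342 in CD8) and Lyz2 (101.5 and 285) were also at least 2-fold higher. In all, 3 genes of this list were higher and 0 lower by this rule, against 3.2% and 5.15% of all genes. Cd14, Fcgr1 and Adgre1 lay below the floor in CD8. Plbd1, Plek and Irf8, which myeloid cells also express, were among the genes higher in CD8, and the part of such cells in these and in the granule and chemokine values was not tested.

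Of 10 B cell genes, 4 lay above the floor in CD8 and 2 were at least 2-fold higher there, Cd79b (305 and 759) and Blk, against 3.2% of all genes. Cd79a read 69.2 in CD8 and 4.6 in CD4, and Ms4a1, Pax5 and Ebf1 also lay below the floor on both arrays; Ighm was high on both, at 13985 in CD4 and 10871 in CD8. Granulocyte genes S100a8 and S100a9 and erythroid genes lay below the floor on both arrays. Of 6 platelet genes 3 lay above the floor, and 0 of these were 2-fold apart. Pan T cell genes were even, with a summed signal of 93104 in CD4 and 90469.7 in CD8 and 0 of 7 at least 2-fold apart. Over all genes 3.2% were higher and 5.15% lower in CD8, so counts of 0 in lists this short are near that share. Of the 267 genes higher in CD8, 110 had a wildtype CD8 signal exceeding the other 3 arrays, each by 2-fold or more. Of the 429 lower genes, 267 had a wildtype CD4 signal exceeding the others in that way.

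The knockout-labelled pair, which shares no array with this one, gives the same contrast at low Cd44. There 167 of 7810 genes above the floor (2.14%) were higher and 109 (1.4%) lower in CD8 by 2-fold or more. Genes on both lists were 57 higher, which is 21.3% of the wildtype and 34.1% of the knockout list, and 46 lower, which is 10.7% and 42.2%. Gzma was in both, with log2 differences of 4.93 and 2.60, and so was Gzmm, at 5.56 and 1.02, both bounds. Prf1 was not, at 2.79 and -0.18. Nkg7 differed more in the knockout pair (1.70 and 5.87), where the CD4 array read 179. Both knockout arrays lay at the floor for 50 of the higher and 107 of the lower genes, which leaves no value there to set beside them.

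A fit over all 4 arrays with subset and labelled genotype as terms gives the only test. With a Benjamini-Hochberg threshold of 0.05 over 8596 genes, limma called 21, with 15 that rose in CD8 (0.174%) and 6 that fell (0.0698%). All 21 were at least 2-fold apart in the wildtype pair, which is itself part of the fit. Cd8a (adjusted p = 6.54e-05) and Cd4 (0.00081) had the smallest p-values, and Cd8b1 (0.0047) was called too, with 2 of 2 pairs in the direction for each. Of the effector genes, Klrd1 rose by a log2 value of 2.15 ± 0.12 (SE, adjusted p = 0.0047), Eomes by 3.10 ± 0.19 (adjusted p = 0.0047), Ctsw by 1.86 ± 0.12 (adjusted p = 0.0047), Ctla2a by 2.37 ± 0.15 (adjusted p = 0.0047) and Crtam by 3.07 ± 0.24 (adjusted p = 0.0104). Izumo1r was the helper and regulatory gene that fell, by 2.96 ± 0.33 on the log2 scale (adjusted p = 0.0454). Gzma (adjusted p = 0.0856), Zbtb7b (0.0845), Nkg7 (0.208), Gzmm (0.33), Foxp3 (0.194) and Ctla4 (0.329) were not called by limma.

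Other called genes lie outside these lists. Cd7, a costimulatory molecule, rose by 1.85 ± 0.13 (adjusted p = 0.00587), and Dpp4 (CD26), a surface peptidase, by 1.22 ± 0.13 (adjusted p = 0.0454). Tspan32 and Cd9, both tetraspanin genes, fell by 2.04 ± 0.13 (adjusted p = 0.0047) and 1.59 ± 0.16 (adjusted p = 0.0368). Tm6sf1, Reck, Fgf13, Glipr2, Dnajc15 and Haao rose and Psen2 and Trib2 fell, with adjusted p-values from 0.0232 to 0.0494. With 1 residual and 5.11 prior degrees of freedom, the fit takes disagreement between the pairs as error and measures no spread between animals, so its p-values describe these arrays only. The count was 2 without the variance trend and 9 to 241 under the other settings.

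**Figure D4:**
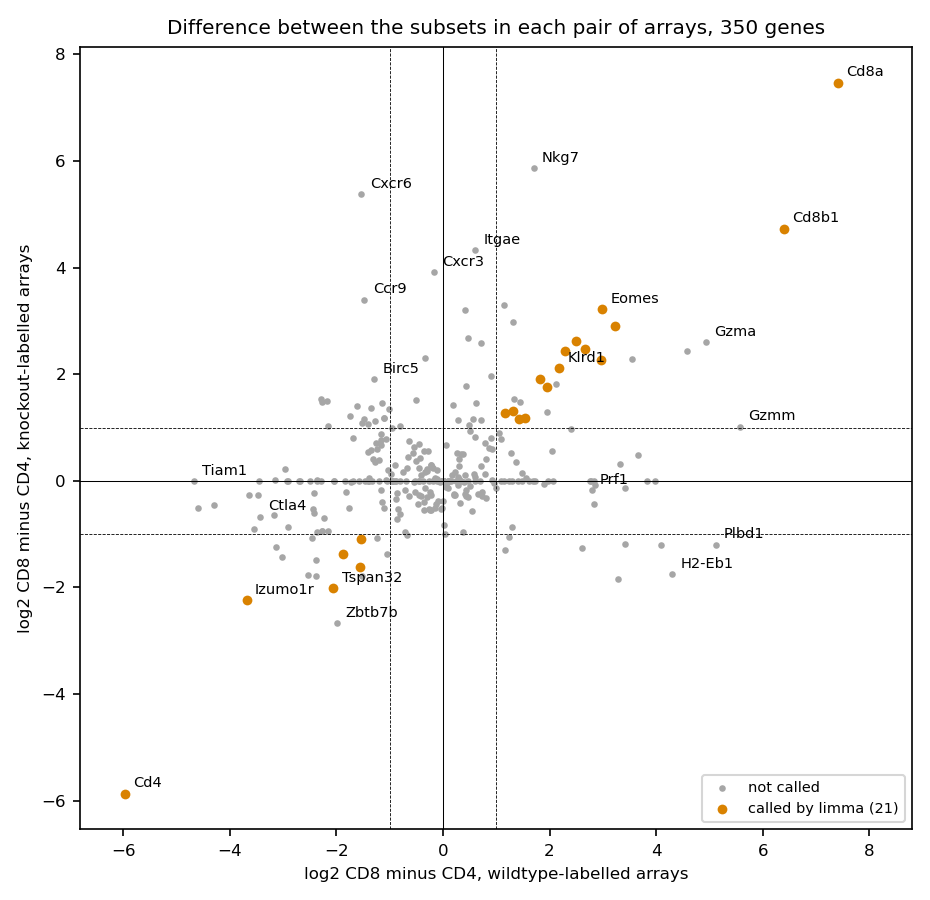
Each point is 1 of 350 named genes, placed by its log2 difference, CD8 minus CD4, on the wildtype-labelled arrays (x axis) and on the knockout-labelled arrays (y axis); orange points are the 21 genes called by limma and dashed lines mark 2-fold. The called genes lie near the diagonal because the fit takes disagreement between the pairs as error. Cxcr6 and Ccr9 lie at the upper left and H2-Eb1 and Plbd1 at the lower right, with opposite signs in the pairs.

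Beyond the lists, several large differences in the wildtype pair stood on the CD4 side. Tiam1, an exchange factor of the RAC GTPase, read 3368 in CD4 and 132 in CD8, 25.4-fold lower (a log2 difference of -4.67, and -2.33 with its probe sets averaged), and lay below the floor on both knockout-labelled arrays. The inflammatory caspase genes Casp4 (1129 and 127) and Casp1 (1605 and 206) were 8.90-fold and 7.79-fold lower in CD8. Chdh, choline dehydrogenase, was 8.96-fold lower and Zdhhc2, a palmitoyltransferase, 7.49-fold. Sostdc1, a secreted BMP antagonist, read 1021 in CD4 and 6.4 in CD8, at least 10.9-fold lower. On the CD8 side Fcgrt, the neonatal Fc receptor, read 112 and 2683, a log2 difference of 4.58, and G0s2, a lipase inhibitor, read 103 and 1297, 12.6-fold higher. Plbd1, a phospholipase of myeloid cells, read 103 and 3572.5 in the wildtype pair and 215 and 77.0 in the knockout pair.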

How the data were processed

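Affymetrix MOE430A_2.0 arrays measured RNA of sorted spleen T cells, 1 array for each of 4 groups, each from pooled RNA of 2 mice. The authors deposited a linear signal intensity for each probe set, from GCOS 1.4 and MAS5 per the submitters' processing notes. No source used here states the scaling, and each array's trimmed mean was 1000.0. Of 22690 probe sets, 64 controls were left out. Probe sets with 1 gene symbol numbered 20380, those with several 691 and those not listed 1555; 20351 matched RefSeq (GRCm38.p6), used for names and promoter windows. Each of 12393 genes was represented by its brightest probe set (mean log2 over the 4 arrays). Groups follow the titles, and each value is 1 array with no spread. Differences are log2 of floored signals, CD8 minus CD4. Limma 3.58.1 (R 4.3.3; lmFit, eBayes with trend, Benjamini-Hochberg adjustment) fitted subset and labelled genotype over 8596 genes that exceeded the floor on any array, and was tested on simulated data. The rest used pandas 2.3.3 and numpy 2.4.6 in Python 3.11.15.

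The groups compared and the 26 gene lists (355 genes, 306 of them with a probe set of a single symbol) were chosen with earlier results of these data known. The genes named in the text are the coreceptor genes and Cd44, the 10 largest differences each way above the floor and up to 10 at it, list members, limma's calls, and genes opposite in the 2 pairs. Of 160 named genes at least 2-fold apart, 52 had another probe set above the floor; it gave the opposite sign for 1 (Zbtb46) and under 2-fold for 13, among them Prf1, Id2, Rora, Ccr9, Itga4 and Bcl6. The alternatives were other floors, a pseudocount of 16, normalizations, probe set rules, filters, a 3-fold threshold and limma without the trend.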

Additional observations from a re-analysis of the deposited data

Results flagged for a closer look

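For 26 of the 8596 genes above the floor on any array, the 2 pairs differed by at least 2-fold in opposite directions. The single CD8 array was above the single CD4 array in 1 pair and below it in the other. Of all genes above the floor in each pair, 3.2% were higher and 5.15% lower in the wildtype-labelled pair. In the knockout-labelled pair the shares were 2.14% and 1.4%. The difference between the pairs was not tested. Values are log2 differences, CD8 minus CD4, first in the wildtype and then in the knockout pair. The knockout values of Plbd1, Alox5ap, Cxcr6, Tk1, Ndc80, Niban1 and Trgv1 are bounds, with 1 array at the floor. So is the wildtype value of Tmem144.

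The 8 genes higher in CD8 in the wildtype pair and lower in the knockout pair include MHC class II genes: H2-Eb1 (4.29 and -1.75), H2-Ab1 (4.10 and -1.21), Cd74 (3.41 and -1.19) and H2-Aa (3.29 and -1.84). Plbd1 (5.12 and -1.20), Alox5ap, which activates leukotriene synthesis (2.60 and -1.26), Csf2ra, a chain of the GM-CSF receptor (1.23 and -1.05), and Itm2a (1.16 and -1.29) were the others.

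There were 18 genes lower in CD8 in the wildtype pair and higher in the knockout pair. On floored values the homing receptors Cxcr6 (-1.53 and 5.38) and Ccr9 (-1.48 and 3.40) had the widest gaps among them. Of these 18, 7 are genes of cell division: Birc5 (-1.28 and 1.90), Rrm2 (-1.35 and 1.36), Cdk1 (-1.52 and 1.08), Tk1 (-1.402 and 1.06), Mki67 (-1.11 and 1.17), Ndc80 (-1.01 and 1.35) and Pbk (-1.27 and 1.12). The T cell receptor gamma segments Trgv1 (-2.29 and 1.53) and Trgv4 (-1.14 and 1.47) and the nuclear receptor gene Rora (-2.16 and 1.04) had the same order. The remaining genes were Anp32a (-2.28 and 1.48), the oxygen sensor gene Egln3 (-2.18 and 1.49), Tmem144 (-1.75 and 1.22), Niban1 (-1.61 and 1.397), the WNT transporter gene Wls (-1.48 and 1.17) and Mafg (-1.10 and 1.17). Other probe sets were under 2-fold in the wildtype pair for Anp32a (-0.49 and -0.59), Egln3 (-0.90), Tmem144 (-0.46), Wls (-0.91) and Mafg (-0.92). A further Wls probe set gave -1.16. The size for these genes therefore depends on the probe set.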

How the results depend on the processing

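Counts of genes depended mainly on the floor. With 696 genes at least 2-fold apart in the wildtype pair (267 higher and 429 lower in CD8), a floor at the 25th percentile gave 1436 (634 and 802), one at the 60th 268 (114 and 154), log2 of the value plus 16 gave 2070 (956 and 1114), no floor 3179 (1493 and 1686), a filter for genes that exceed the floor on every array 388 (163 and 225) and a 3-fold threshold 271 (112 and 159). Quantile normalization, median centring and both probe set rules stayed within 1.5 times. Of the genes apart in both pairs, 103 in all (57 and 46), the first 4 of these settings in turn left 215 (108 and 107), 40 (28 and 12), 378 (195 and 183) and 858 (418 and 440), and the filter left 30 lower genes. Limma's 21 calls (15 and 6) became 241 (135 and 106) with the lower floor, 141 (79 and 62) with the pseudocount, 168 (93 and 75) without a floor, 106 (60 and 46) with the filter, 9 (7 and 2) after quantile normalization, 10 (8 and 2) with median centring, 12 (2 of them lower) with averaged probe sets and 2 (1 and 1, Cd8a and Cd4) without the trend. All calls after quantile normalization, with median centring, with averaged probe sets and without the trend were among the 21. The cause of these changes was not tested beyond the number of genes that each floor lets pass.

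List medians moved by over 1.5-fold in 4 cases. With a floor at the 60th percentile the regulatory median was -1.04 and the helper lineage median -0.39. With the filter the cytokine and chemokine median was -0.14 and the helper surface median -0.70. None of 304 named genes above the floor turned its sign from a call of 2-fold under any of 9 settings, and 65 of the 160 called genes fell under 2-fold in at least 1, of which 55 with the floor at the 60th percentile. Averaging probe sets left Klra7 at 1.91, Cx3cr1 at 1.03, Rora at -1.51 and Tnfsf11 at -3.58 (log2, CD8 minus CD4). No paired analysis by replicate was possible because the labels give 1 array a group and no replicate numbers; limma's fit pairs the CD8 and CD4 arrays within each labelled genotype.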

Other observations

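The T cell receptor gamma segments Trgv1 and Trgv4 read 1532 and 1358 on the wildtype CD4 array, against 314 and 616.5 on the CD8 array, 4.88-fold and 2.20-fold lower in CD8. Of the gamma delta T cell list, 2 of 7 genes could be named. Sox13 read 11.6 in CD4 and 100.2 in CD8, and Il17a lay below the floor on both arrays.

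Letters of other factors were searched in the same promoter windows on both strands. The short T-box core GGTGTG was in 24.4% of windows of genes at least 2-fold higher and in 18.4% of those at least 2-fold lower in CD8, against 19.0% of all windows and 18.2% of those of genes above the floor. The longer form AGGTGTGA was in 2.67% and 1.16%, against 1.28% and 0.842%, and holds the short core within it. GGAAA, the core bound by NFAT, was in 58.4% and 58.6%, against 61.3% and 58.7%.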
